A study of Mus musculus with 72 samples.

Results

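T cell and thymocyte genes were followed in 72 RNA-seq libraries of adult mouse heart. The group holds 10 of the 24237 genes in the count table. They were chosen by name from their levels in these same libraries, to set 7 genes of mature T cells (Cd3d, Cd3e, Cd3g, Cd4, Cd8a, Cd8b1 and Lck) against 3 genes of immature thymocytes (Rag1, Dntt and Ptcra). Their levels are therefore given as a description. The comparisons between groups were fitted over all genes, and calls among the members are no independent evidence, since the members were chosen on these libraries. Right atrium, left atrium and ventricle were taken from male and female C57BL/6J mice, with 3 libraries for each of 24 groups. The naive group was Ahr+/+. The second group was Ahr-/- and lacked the aryl hydrocarbon receptor (AHR), a transcription factor that dioxins activate. The other groups were Ahr+/+ offspring of dams gavaged on 3 days of gestation with TCDD, a dioxin, at 1 µg/kg (high dose) or 0.1 µg/kg (low dose). The methods give an age of about 10 months and the labels 9 months, and the 2 sources also differ in the embryonic days of gavage. The treatment label names TCDD in every sample, controls included. The methods say that Ahr+/+ control dams were given the corn oil vehicle and that Ahr-/- dams were left untreated. The Ahr-/- mice carried the deletion in every tissue from conception and came from Ahr-/- parents, so the offspring's own genotype, the dam's and the lack of gavage cannot be told apart. The labels give the cell type as cardiomyocytes, but the tissue was whole dissected chamber, and the 3 chambers came from the same hearts with no label tying a chamber to its animal.

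T cells recognise peptide antigens through a T cell receptor that signals through the CD3 chains, with CD4 or CD8 as coreceptor and the kinase LCK bound to that coreceptor. They are made in the thymus, a lymphoid organ that lies directly over the base of the heart and is large in young animals but shrinks with age. There, thymocytes cut and join their receptor gene segments with the recombinase that Rag1 and Rag2 encode, Dntt (terminal deoxynucleotidyl transferase) adds untemplated nucleotides at the joins, and the product of Ptcra (the pre-T cell receptor alpha chain) pairs with the first rearranged chain. Mature T cells that leave the thymus switch Rag1, Dntt and Ptcra off, and keep the CD3 chains, a coreceptor and Lck on. Developing B cells in the bone marrow also use Rag1 and Dntt. In bulk tissue, fewer cells of a type and less RNA per cell cannot be told apart.

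Depth ran from 11873417 to 28789382 counts per library, with a median of 19231739. Levels are given as CPM, counts scaled to the library's total. With 3 counts as the limit of a count of 0, that limit was 0.253 CPM at the lowest depth and 0.104 CPM at the highest. No 2 libraries held identical values. In 8 libraries, all numbered from 49 to 72, the sex-linked genes went against the label. In 13 libraries the level of Myl4, the atrial myosin light chain, did: 8 labelled atrial were under 100 CPM and 5 labelled ventricle were over 500 CPM. Together these made 17 libraries, 6 labelled right atrium, 6 left atrium and 5 ventricle, and values without them come from 1 fit of all 24 groups. Libraries are named here by the number in their label.

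The bases before the starts of the 3 immature genes and of Lck are shown. RefSeq promoter sequence (build GRCm38.p6) was at hand for 8 of the 10 genes, in 9 windows, of which 2 belong to Lck. Each line holds the 250 bases before the start, 5′ to 3′ in the direction of the gene. Capitals mark every E-box, the letters CANNTG, which reads alike on both strands and is the motif bound by the E proteins that drive thymocyte development.
Rag1, minus strand, chr2:101649533-101649782: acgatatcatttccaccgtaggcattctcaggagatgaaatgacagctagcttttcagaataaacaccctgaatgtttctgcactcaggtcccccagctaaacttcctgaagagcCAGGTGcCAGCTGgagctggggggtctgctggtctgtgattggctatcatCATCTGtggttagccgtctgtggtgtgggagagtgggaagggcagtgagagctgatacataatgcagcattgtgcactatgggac
Dntt, plus strand, chr19:41029025-41029274: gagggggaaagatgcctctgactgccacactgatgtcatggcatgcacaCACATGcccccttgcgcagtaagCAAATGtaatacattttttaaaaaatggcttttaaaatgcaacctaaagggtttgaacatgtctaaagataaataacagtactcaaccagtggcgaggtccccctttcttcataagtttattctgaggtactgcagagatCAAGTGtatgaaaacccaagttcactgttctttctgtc
Ptcra, minus strand, chr17:46763713-46763962: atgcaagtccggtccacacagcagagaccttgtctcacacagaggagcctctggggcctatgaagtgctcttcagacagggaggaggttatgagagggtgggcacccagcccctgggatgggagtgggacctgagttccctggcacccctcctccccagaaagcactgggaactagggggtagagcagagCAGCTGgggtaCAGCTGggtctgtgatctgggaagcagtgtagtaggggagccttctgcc
Lck, upstream start, minus strand, chr4:129573642-129573891: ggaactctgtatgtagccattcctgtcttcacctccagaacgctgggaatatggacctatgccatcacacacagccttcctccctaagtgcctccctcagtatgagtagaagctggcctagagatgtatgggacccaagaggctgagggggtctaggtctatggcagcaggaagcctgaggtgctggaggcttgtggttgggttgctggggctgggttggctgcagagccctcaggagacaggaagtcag
Lck, downstream start, minus strand, chr4:129558373-129558622: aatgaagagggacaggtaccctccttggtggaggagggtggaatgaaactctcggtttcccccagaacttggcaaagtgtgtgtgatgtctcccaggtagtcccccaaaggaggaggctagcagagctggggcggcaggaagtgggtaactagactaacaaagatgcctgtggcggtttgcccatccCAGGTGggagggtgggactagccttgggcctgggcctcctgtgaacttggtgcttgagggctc
Rag1 and Dntt each held 3 E-boxes, Ptcra held 2, the downstream Lck window held 1 and the upstream Lck window held 0. Over all members, 8 of 9 windows held at least 1 E-box, beside 66.2% of 32851 mouse promoter windows of the same length. The form CAGGTG, read on both strands and part of the E-box count, was in 4 of 9 windows, beside 17.2% of all windows. Lck is known to be transcribed from a proximal and a distal promoter whose use changes as thymocytes mature, but the counts were made per gene and cannot tell the starts apart. A match is a run of letters and says nothing of binding in these hearts.

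The members lie at 7 places in the genome. Cd3g, Cd3d and Cd3e stand in a row on chromosome 9, within the 40092 bases of chr9:44969572-45009663. Cd8b1 and Cd8a share 56384 bases of chromosome 6, at chr6:71322788-71379171, and Cd4 lies farther along the same chromosome at chr6:124864693-124888247. Lck is at chr4:129548344-129573641, Rag1 at chr2:101638252-101649532, Dntt at chr19:41029275-41059525 and Ptcra at chr17:46755663-46763712. Reads were counted over coding regions, and strand was not stated to be used.

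Mature T cell genes were found at a low level in nearly every heart library. Of the immature thymocyte genes, Rag1 and Dntt were close to absent from nearly all libraries, whereas Ptcra passed 3 counts in 50 of 72. The 7 mature genes together had a median of 6.18 CPM over the 72 libraries, from 2.40 to 566 CPM. The 3 immature genes together had a median of 0.321 CPM, from 0 to 367 CPM. By labelled compartment, the median of the mature sum was 7.16 CPM in right atrium, 6.78 CPM in left atrium and 4.83 CPM in ventricle. The immature sum had medians of 0.270 CPM, 0.357 CPM and 0.334 CPM in the same order. These compartment medians lie well inside the range of single libraries in each compartment, so no order among them is drawn.

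**Figure D1:**
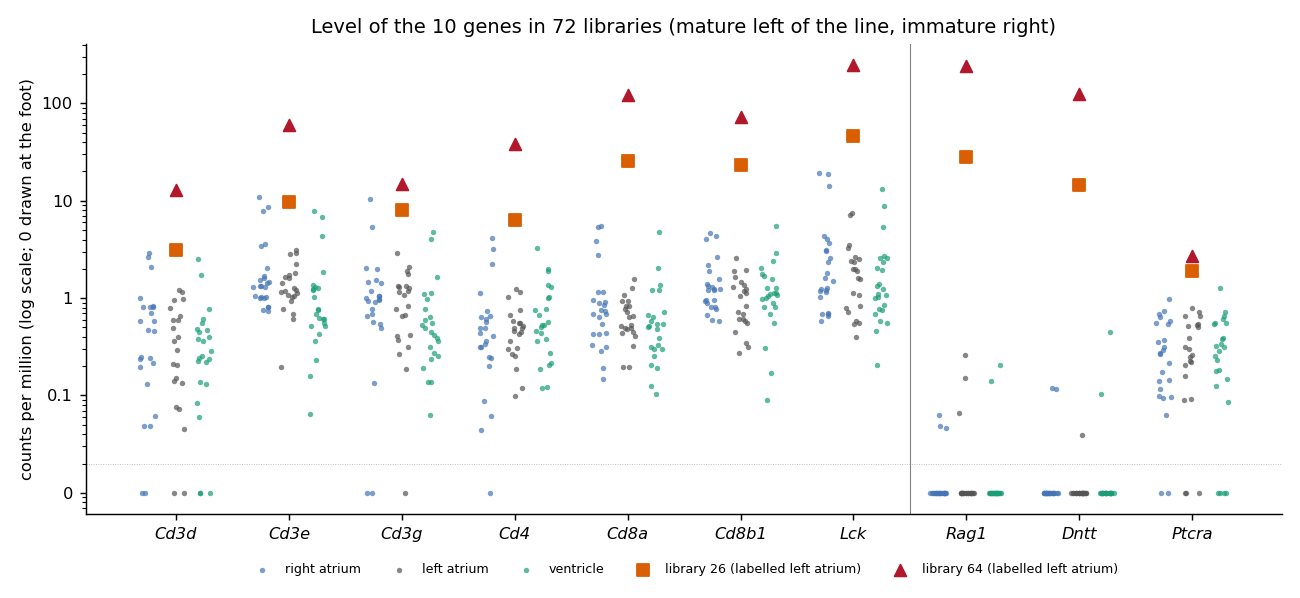
CPM (log scale, values of 0 at the foot) of the 10 genes in each of 72 libraries, coloured by labelled compartment, with libraries 26 and 64 drawn as a square and a triangle. Rag1 and Dntt lie at 0 in 62 and 65 libraries and reach 28.1 and 14.5 CPM in library 26 and 240.0 and 124 CPM in library 64.

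Among the mature genes, Lck had the highest median, 1.54 CPM, followed by Cd3e at 1.21 CPM and Cd8b1 at 1.13 CPM. Per kilobase of coding sequence, which allows levels of different genes to be compared, the order was Cd3e at a median of 2.13, Cd8b1 at 1.77, Cd3g at 1.43, Lck at 0.986, Cd8a at 0.825, Cd3d at 0.592 and Cd4 at 0.363 CPM per kb. The ranges of neighbours in this order overlap. Ptcra, of the immature genes, had a median of 0.469 CPM per kb, above that of Cd4. Cd3e, Cd8a, Cd8b1 and Lck had at least 1 count in all 72 libraries. Cd4 was at 0 in 1 library, Cd3g in 3 and Cd3d in 7.

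Rag1 was at 0 in 62 of 72 libraries and Dntt in 65, and both were at 0 in 58. Rag1 passed 3 counts in 4 libraries and Dntt in 3. Outside libraries 26 and 64, the highest Rag1 value was 0.258 CPM, which is 5 counts in library 19 (left atrium, naive female). The highest Dntt value outside them was 0.447 CPM, which is 11 counts in library 65 (labelled ventricle, high-dose male), where Rag1 had 5 counts. All 3 immature genes passed 3 counts in 3 libraries, 26, 64 and 65, and 10 counts in 2, 26 and 64.

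Ptcra did not follow Rag1 and Dntt. It had at least 1 count in 63 libraries, with a median of 0.290 CPM, and in 50 of the 58 libraries where Rag1 and Dntt were both at 0. In those 58 libraries it reached 1.28 CPM, in library 53. The immature share of all member reads therefore rested on Ptcra in most libraries, with a median of 4.64%. The third-highest share, 20.5% in library 33, came with Rag1 and Dntt at 0.

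Libraries 26 and 64 stood apart from the other 70. Library 26 is labelled left atrium of a high-dose male, and library 64 left atrium of a high-dose female. Rag1 had 661 counts (28.1 CPM) in library 26 and 5993 counts (240.0 CPM) in library 64. Dntt had 340 counts (14.5 CPM) in library 26 and 3099 counts (124 CPM) in library 64. Ptcra had 45 counts (1.92 CPM) and 67 counts (2.68 CPM), the highest pair of values for that gene too. The mature sum was 123 CPM in library 26 and 566 CPM in library 64, against at most 49.6 CPM in the other 70 libraries. Immature genes made up 26.6% of member reads in library 26 and 39.3% in library 64. Per kilobase of coding sequence these shares were 13.0% and 20.5%. The other 70 libraries reached 22.1% on that scale, so the share per kilobase did not set the pair apart.

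**Figure D2:**
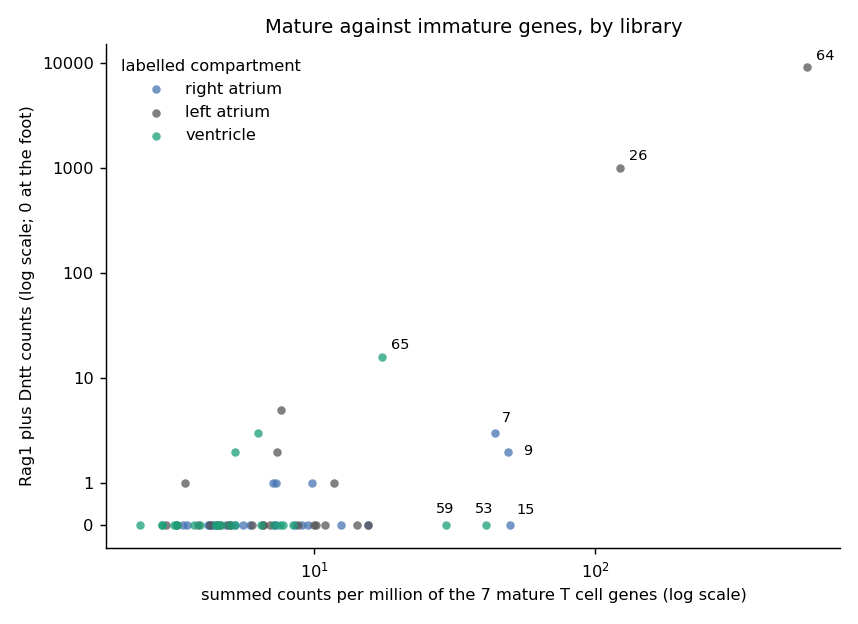
Each point is a library, with the summed CPM of the 7 mature genes across (log scale) and the Rag1 plus Dntt counts upwards (log scale, 0 at the foot), coloured by labelled compartment and numbered for 8 libraries. Libraries 26 and 64 are alone at the upper right, while libraries 7, 9, 15, 53 and 59 have mature sums from 29.5 to 49.6 CPM with at most 3 counts of Rag1 plus Dntt.

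Neither library is among the 17 whose sex-linked genes or Myl4 went against the label. Bmp10, a gene of the right atrium, was at 1134 CPM in library 64, although the label says left atrium. Over 50 CPM of Bmp10 was found in 14 of 24 libraries labelled right atrium and in 5 of 24 labelled left atrium. In library 26 Bmp10 was at 12.4 CPM, and Myl2, the ventricular myosin light chain, was at 3868 CPM beside 79.0 CPM in library 64. The group mates of the 2 libraries had next to no Rag1: 0 counts in libraries 25 and 63 (high-dose male) and 1 and 2 counts in libraries 27 and 28 (high-dose female).

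Library 64 was higher than library 26 in all 10 genes, but by unequal ratios. The ratio of library 64 to library 26 was 8.53 for Rag1 (95% exact interval 7.87 to 9.26) and 8.58 for Dntt (7.67 to 9.62), so these genes kept the same proportion within counting error. It was 6.27 for Cd3e (5.45 to 7.25), 5.95 for Cd4 (5.00 to 7.11), 5.26 for Lck (4.93 to 5.61) and 4.79 for Cd8a (4.38 to 5.24). It was 4.19 for Cd3d (3.24 to 5.48), 3.08 for Cd8b1 (2.80 to 3.40), 1.86 for Cd3g (1.56 to 2.23) and 1.40 for Ptcra (0.946 to 2.09), whose interval includes 1. The intervals cover counting error only and compare 2 libraries, not the sexes or conditions.

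Per kilobase of coding sequence, Rag1 stood at 0.723 of Cd3e in library 64 and at 0.532 in library 26, and at no more than 0.109 in the other 70 libraries. Cd8a was above Cd3e in both, with ratios of 1.55 and 2.03, beside a median ratio of 0.383 over all libraries. Lck per kilobase was 1.48 times Cd3e in library 64 and 1.77 times in library 26, beside a median of 0.454. Cd4 was at 0.260 and 0.275 of Cd3e, beside a median of 0.166. In the other 5 libraries with mature sums over 20 CPM the ratio of Cd8a to Cd3e was at most 0.542 and that of Lck at most 0.879. Ratios over a Cd3e level of a few counts reached 4.59 for Cd8a in other libraries and are not read.

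**Figure D3:**
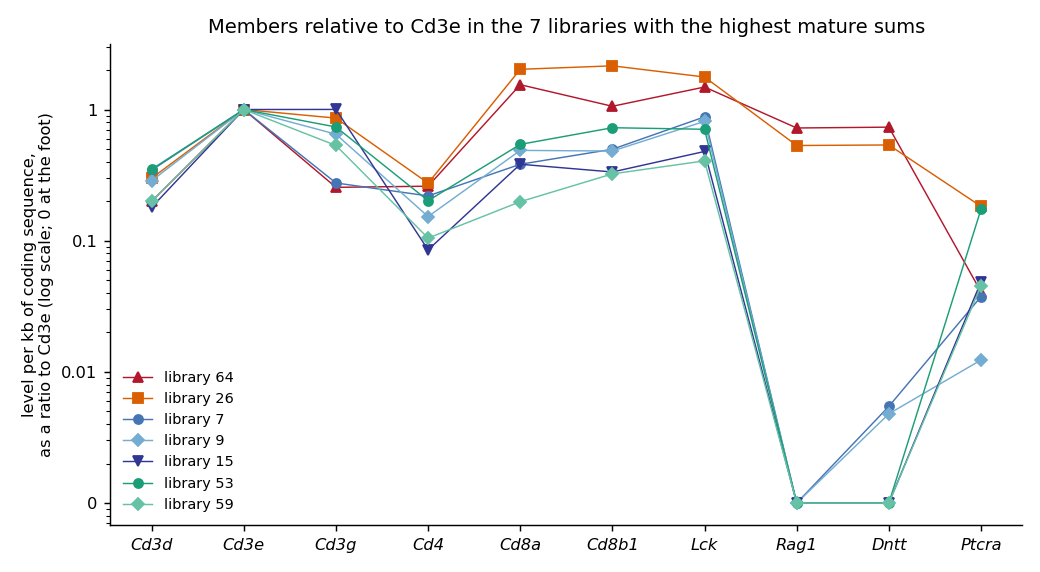
Level of each gene per kilobase of coding sequence as a ratio to Cd3e in the same library (log scale, 0 at the foot), for the 7 libraries with mature sums over 20 CPM; lines only join the points of a library. Rag1 lies at 0.723 and 0.532 in libraries 64 and 26 and at 0 in the other 5.

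A second set of libraries held mature T cell genes without Rag1 or Dntt. In all, 7 libraries had a mature sum over 20 CPM. Next to 64 and 26 these were library 15 (right atrium, low-dose female) at 49.6 CPM, library 9 (right atrium, high-dose male) at 49.1 CPM and library 7 (right atrium, Ahr-/- female) at 43.9 CPM. Library 53 (labelled ventricle, naive male) followed at 40.8 CPM and library 59 (labelled ventricle, Ahr-/- male) at 29.5 CPM. Rag1 was at 0 in these 5 libraries, and Dntt at 0, 2, 3, 0 and 0 counts in the order given. Lck lay between 8.86 CPM in library 59 and 19.2 CPM in library 9. Cd3e lay between 6.75 CPM in library 53 and 10.9 CPM in library 15, about the level of library 26 (9.62 CPM), where Rag1 was at 28.1 CPM. These 5 libraries covered all 4 arms, and libraries 53 and 59 are among those with sex-linked genes and Myl4 against the label.

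B cell genes were higher in the second set. The 9 B cell genes measured summed to between 62.8 and 116 CPM in its 5 libraries, beside 49.1 CPM in library 26 and 27.3 CPM in library 64. Ms4a1, which encodes the B cell surface protein CD20, was at 17.2, 23.8, 17.4, 24.7 and 20.3 CPM in libraries 15, 9, 7, 53 and 59, beside 2.04 CPM in library 64 and 4.72 CPM in library 26. Of the 9 B cell genes, none was highest in library 64, whereas all 7 mature members and all 3 immature members were. Over all 16408 genes with at least 1 CPM in some library, library 64 was the highest for 8.77%, and libraries 64 and 26 were the highest 2 for 0.878%. The members were chosen on these values, so their counts are a description. Il7r, the interleukin 7 receptor, lay between 2.34 and 10.2 CPM in those 5 libraries, at 3.20 CPM in library 64 and at 1.53 CPM in library 26.

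Several genes of thymocytes and thymus outside the 10 members were highest in the same 2 libraries: 6 of 15 other thymocyte genes and 4 of 10 thymic epithelium genes, beside the 0.878% of all genes. Rag2, the partner of Rag1 in the recombinase, was at 15.3 CPM in library 64 and 4.85 CPM in library 26, and at 0.0624 CPM or less in the other 70. Prss16, a protease of thymic cortical epithelium, was at 116 and 17.5 CPM, beside at most 0.859 CPM elsewhere. Tcf7, the T lineage factor TCF-1, was at 163 and 29.5 CPM, beside at most 12.2 CPM. Bcl11b, which fixes T cell identity, was at 93.9 and 21.3 CPM, beside at most 10.6 CPM. Satb1, a chromatin organiser of thymocytes, was at 167 and 57.7 CPM, beside at most 50.6 CPM. Myb, a factor of precursor cells, was at 68.6 and 13.4 CPM, with 17.8 CPM in library 15.

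Across the list of 15 other thymocyte genes, library 64 was the highest for 10. Of the 10 genes of the thymic epithelium list that reached 1 CPM, library 64 was the highest for 5. Foxn1, the master factor of that epithelium, had 14 counts (0.561 CPM) in library 64 and 4 counts in library 26, and at most 0.106 CPM elsewhere. Aire, the gene of medullary epithelium, was at 0 counts in library 64 and 5 in library 26, with up to 0.449 CPM in other libraries. Krt5 and Epcam, keratin and adhesion genes of many epithelia, were higher elsewhere, at 24.9 CPM in library 21 and 62.5 CPM in library 15. The B cell precursor genes Vpreb1 and Igll1 had 0 counts in library 64, and 3 and 0 in library 26. Vpreb2 and Vpreb3 had 0 counts in library 64, and 2 and 3 in library 26. Ebf1, of the same list, was at 55.2 and 52.7 CPM in libraries 64 and 26. Its median over the 72 libraries was 35.8 CPM, and it reached 78.5 CPM in library 65.

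Of the 15 genes of T cell receptor signalling, 13 were highest in library 64. Zap70, the kinase that acts after LCK, was at 14.9 and 2.21 CPM in libraries 64 and 26, beside at most 3.57 CPM in the other libraries. Lat, the adaptor that ZAP-70 phosphorylates, was at 20.2 and 9.53 CPM, beside at most 3.45 CPM. Fyn, a kinase also made by heart cells, was at 45.3 and 46.3 CPM, under the median of 52.4 CPM. Of 16 T cell surface and effector genes, 5 were highest in library 64. Cd27 was at 24.4 and 7.45 CPM, and Thy1, shared by fibroblasts and neurons, at 147 and 49.9 CPM with 63.7 CPM in library 21. Sh2d1a, the gene of the adaptor SAP, was at 12.2 and 4.94 CPM, beside at most 1.44 CPM. Of 12 genes of dividing cells, 12 were highest in library 64, and in 3 of them (Ccnb2, Birc5 and Rrm2) library 26 came second. Top2a was at 133 and 21.1 CPM and Mki67 at 107 and 15.2 CPM, beside at most 23.8 and 30.7 CPM.

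**Figure D4:**
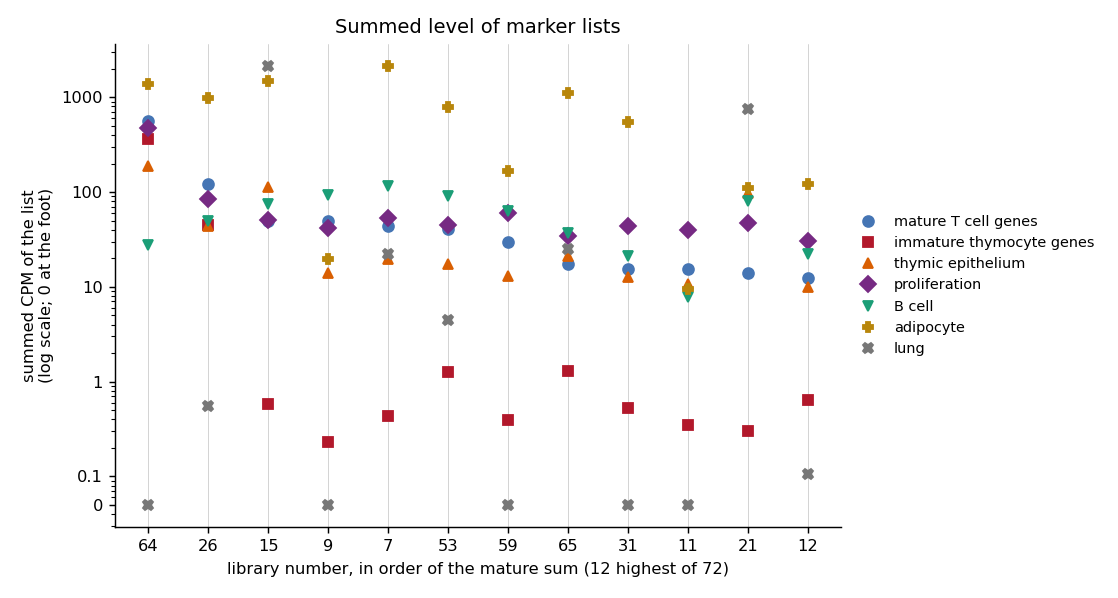
Summed CPM (log scale, 0 at the foot) of 7 gene lists in the 12 libraries with the highest mature T cell sums, in that order. Immature thymocyte genes reach 367 CPM in library 64 and 44.5 CPM in library 26 and stay at or under 1.30 CPM in the other 10, while B cell genes are at 27.3 and 49.1 CPM in that pair and at 116 CPM in library 7.

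Markers of tissues other than heart moved with several of these libraries. The 6 adipocyte genes summed to 1392 CPM in library 64, 979 CPM in library 26, 2142 CPM in library 7, 1469 CPM in library 15, 1106 CPM in library 65 and 789 CPM in library 53, but to 19.5 CPM in library 9. In all, 11 libraries had an adipocyte sum over 500 CPM, of which 6 had a mature sum of 20 CPM or less, such as library 23 with 1345 CPM beside a mature sum of 6.97 CPM. Ucp1, the brown fat uncoupling protein, was at 322 CPM in library 64 and 327 CPM in library 26, beside a median of 0.110 CPM. Scgb1a1, a secretory gene of airway cells, was at 2061 CPM in library 15 and 736 CPM in library 21, and at 0 and 0.298 CPM in libraries 64 and 26. Haemoglobin genes with Alas2, an enzyme of haem synthesis, summed to 1540 CPM in library 64 and 4223 CPM in library 26. Each of these genes lay under its median over the 72 libraries in library 64 and above it in library 26. Hba-a1 and Hba-a2 held the same counts in both libraries, so the sum may hold the same reads more than once. Macrophage genes summed to 624 and 722 CPM in the pair, with 1281 CPM in library 21. Pth, the parathyroid hormone gene, was at 0 in every library. The part of these tissues in the levels of the members was not tested.

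The genes whose level most closely followed the members were sought over all 72 libraries by Pearson's r of log2(CPM + 0.25), leaving the members out. For the mean of Cd3d, Cd3e and Cd3g these were Grap2 (r = 0.88), Acap1 (0.88), Rac2 (0.88), Coro1a (0.87) and Dock2 (0.85). They kept r from 0.83 to 0.85 over the 70 libraries without 26 and 64. For the mean of Rag1, Dntt and Ptcra these were Rag2 (0.97), BB031773 (0.96), Tdrd5 (0.96), Chrna9 (0.89) and Spo11 (0.88). Without libraries 26 and 64 their r ranged from -0.06 to 0.09, so this likeness rests on those 2 libraries. The libraries share hearts and depth, and the values are given as a description.

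The first comparison set each arm against naive hearts of the same sex and chamber, 3 libraries against 3, in the quasi-likelihood test of edgeR, with p-values adjusted by Benjamini-Hochberg over every gene tested. No member passed an adjusted p of 0.05 in any of the 18 comparisons, out of 97 tests of members. Over all genes, 1.27% of tests passed, nearly all of them in ventricle of high-dose females, where 23.7% of genes did. In ventricle of Ahr-/- females the share was 0.0216%, and it was 0 in the other 16. At an unadjusted p under 0.05 there were 21 of the 97 member tests, beside 9.68% of all gene tests, and DESeq2 called 0 members in 146 tests. Rag1 and Dntt failed the filter on counts in every comparison. Ptcra passed it in 4 of 18, Cd3d in 6 and Cd4 in 9, while Cd8b1 and Lck passed in all 18. Passing needed enough counts in at least 3 libraries of a comparison, which Rag1 and Dntt lacked even where 1 library was high. Which members passed therefore depended on their levels in these libraries, so no count over those that passed is taken as a result.

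The smallest p among members fell to Lck or Cd3e in 10 of the 18 comparisons. In ventricle of Ahr-/- females, Lck was at 1.93, 1.35 and 2.70 CPM, beside 0.757, 0.558 and 0.772 CPM in naive females. The groups did not overlap, and the log2 fold change was 1.61 (SE 0.48) with an edgeR adjusted p of 0.515. In left atrium of low-dose females, Lck was at 7.47, 3.30 and 2.61 CPM, beside 2.01, 1.12 and 1.57 CPM, again without overlap. There the log2 fold change was 1.60 (SE 0.47), with an edgeR adjusted p of 0.168. In ventricle of low-dose females Lck was at 1.40, 2.34 and 1.23 CPM, a log2 fold change of 1.37 (SE 0.44) with an edgeR adjusted p of 0.170. Ptcra in left atrium of Ahr-/- females was at 0.654, 0.658 and 0.726 CPM, beside 0.206, 0.0898 and 0 CPM, with a log2 fold change of 2.82 (SE 0.92) and an edgeR adjusted p of 0.359.

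Lck in ventricle of high-dose females came closest to the threshold. It was at 2.59, 2.57 and 0.577 CPM, beside 0.757, 0.558 and 0.772 CPM in naive females, so the third high-dose library (66) lay within the naive range. The log2 fold change was 1.55 (SE 0.57) with an edgeR adjusted p of 0.0666. Without library 66 it was 1.93 with an edgeR adjusted p of 0.0275, when 13.6% of all genes passed, and with libraries 1 to 48 alone it was 2.09 with 0.0413, when 12.6% did. Cd3e there gave a log2 fold change of 1.39 (SE 0.65) with an edgeR adjusted p of 0.139. Cd8b1, the third member tested, went the other way, with a log2 fold change below 0. It was at 0.4812, 1.777 and 1.279 CPM per kb of coding sequence, beside 1.658, 1.997 and 1.725 CPM per kb in naive females.

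In right atrium several of the larger differences rested on single libraries. Lck in high-dose males was at 19.2, 1.29 and 2.34 CPM, beside 1.16, 0.576 and 1.60 CPM in naive males. Its log2 fold change was 2.74 (SE 0.90) with an edgeR adjusted p of 0.887, and it fell to 0.87 without library 9, the one at 19.2 CPM. In that comparison 3 of the 6 members tested had an unadjusted p under 0.05, beside 5.41% of all genes. Cd3e in low-dose females was at 10.9, 1.69 and 1.02 CPM, beside 0.998, 0.803 and 0.733 CPM. The log2 fold change was 2.33 (SE 0.84) with an edgeR adjusted p of 0.974, and fell to 0.78 without library 15, the highest. Cd3e in Ahr-/- females was at 7.77, 1.45 and 1.00 CPM, with a log2 fold change of 1.87 that fell to 0.43 without library 7, and in high-dose females at 3.58, 3.46 and 0.819 CPM, with edgeR adjusted p-values of 0.817 and 0.973. The male Ahr-/- and low-dose comparisons were led by Cd8b1, with log2 fold changes of 0.99 and 0.85 and edgeR adjusted p-values of 0.821 and 0.941. Of the right atrium female libraries, 4 and 50 (naive), 56 (Ahr-/-), 11 and 62 (high dose) and 68 (low dose) went against their labels. Without them the log2 fold changes of Cd3e were 2.18, 1.75 and 2.66 in Ahr-/-, high-dose and low-dose females. These values rest on library 3 as the only naive female left, with library 12 as the only high-dose female. Libraries 7 and 15 were kept.

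In ventricle of males the direction rested on 1 naive library for the Ahr-/- and high-dose groups, while at the low dose it stayed below 0. Cd8b1 was at 0.890, 0.977 and 5.53 CPM in naive males, the last being library 53, whose sex-linked genes and Myl4 went against the label. It was at 1.69, 1.12 and 2.89 CPM in Ahr-/- males, 1.01, 1.07 and 2.40 CPM in high-dose males and 0.805, 0.683 and 0.171 CPM in low-dose males. The log2 fold changes were -0.32, -0.69 and -2.08, with edgeR adjusted p-values of 0.945, 0.753 and 0.338. The third libraries of the other 3 groups, 59, 65 and 71, went against their labels too, as did library 46 at the low dose. Without library 53 alone the 3 values were 0.97, 0.60 and -0.82, and in the 24-group fit without every such library they were 0.69, 0.22 and -0.19. The last rests on library 45, the only low-dose male library left there.

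Left atrium of high-dose hearts held libraries 26 and 64. Cd8a in high-dose males was at 1.27, 25.5 and 0.513 CPM, beside 0.198, 0.650 and 0.325 CPM in naive males, with a log2 fold change of 4.41 (SE 1.5) and an edgeR adjusted p of 0.385. Cd3e in high-dose females was at 2.94, 1.67 and 60.4 CPM, beside 0.774, 1.21 and 0.931 CPM in naive females, with a log2 fold change of 4.41 (SE 1.36) and an edgeR adjusted p of 0.592. In these females all 6 members tested had an unadjusted p under 0.05, beside 8.42% of all genes. Without library 26 the first was 1.28, and without library 64 the second was 1.18. Left atrium of Ahr-/- and low-dose males gave smallest p-values for Lck and Cd8a, with log2 fold changes of 1.23 and 0.76 and edgeR adjusted p-values of 0.928 and 0.999.

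Taking both sexes in a single edgeR fit with sex as a term gave 6 libraries against 6. No member passed an adjusted p of 0.05 in any of the 9 comparisons, out of 62 member tests, beside 2.8% of all gene tests. At an unadjusted p under 0.05 there were 15, beside 16.1% of all gene tests, and DESeq2 called 0 members in 69 tests. The share of all genes that passed was 13.1% and 12.9% in ventricle at the high and the low dose. It was 0.0347% in ventricle of Ahr-/- hearts, 0.0732% in right atrium at the high dose, 0.0132% and 0.00655% in left and right atrium of Ahr-/- hearts, and no gene passed in the other 3.

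In left atrium at the high dose, 7 of the 8 members tested had an unadjusted p under 0.05, beside 17.9% of all genes. Cd8a averaged 25.1 ± 48.4 CPM (SD, n = 6) at the high dose and 0.531 ± 0.262 CPM (SD, n = 6) in naive hearts. Its log2 fold change was 5.19 (SE 1.43) with an edgeR adjusted p of 0.118, the smallest of the members there. The other 7 had log2 fold changes from 2.11 (Ptcra) to 4.67 (Lck) and edgeR adjusted p-values from 0.155 to 0.286. Without libraries 26 and 64 the log2 fold change of Cd8a was 0.75 (SE 0.57) with an edgeR adjusted p of 0.580, and those of the other 7 ran from -0.36 (Cd4) to 1.15 (Cd3d), with the smallest edgeR adjusted p at 0.578.

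A single edgeR fit of all 24 groups gave other calls in that comparison. With all 72 libraries, a choice made after seeing the data, it called 5 members higher at the high dose (Cd8a, Cd8b1, Lck, Cd3e and Cd4), Cd8a with a log2 fold change of 5.13 and an adjusted p of 0.00263, when 3.44% of all genes passed. Without the 17 libraries against their labels, which takes out libraries 51 and 63 and keeps 26 and 64, it called 7, with Cd3d and Rag1 added, when 9.74% of all genes passed. Rag1 passed the filter through libraries 26 and 64 alone, so no fold is given for it, and the members were chosen on these libraries.

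**Figure D5:**
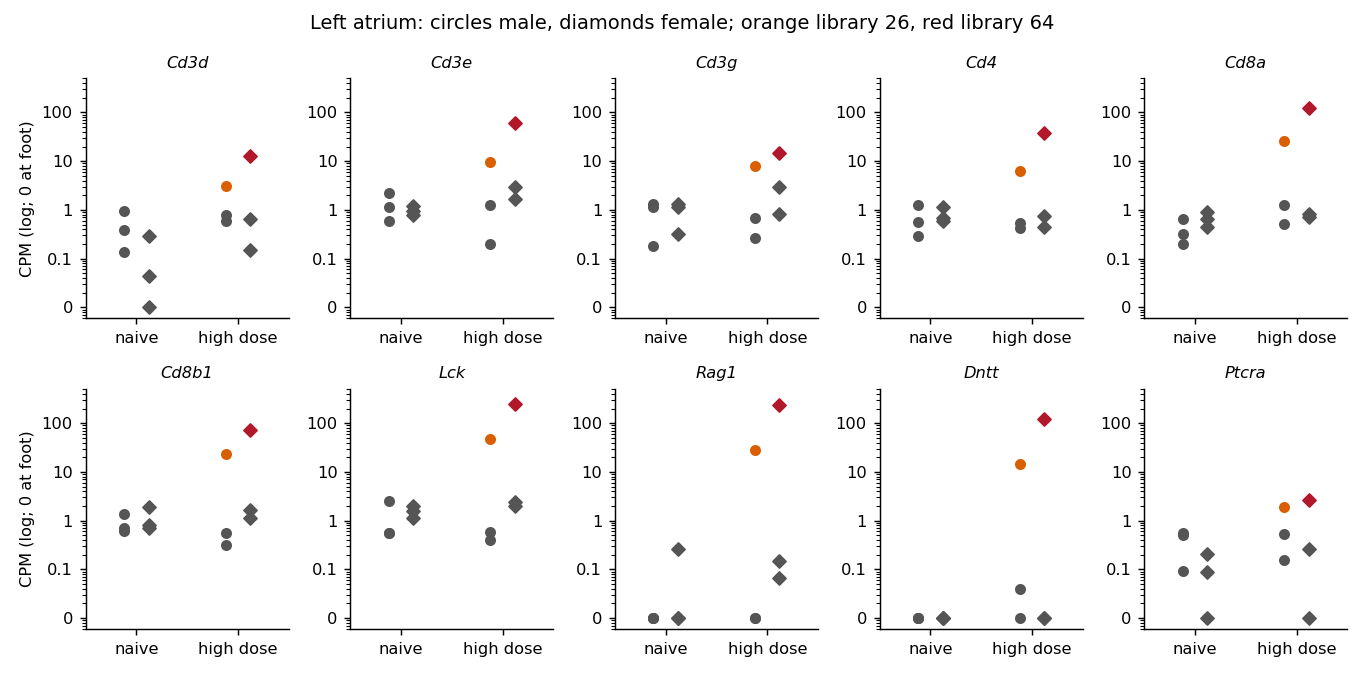
CPM (log scale, 0 at the foot) of the 10 genes in the 6 naive and 6 high-dose libraries labelled left atrium, with circles for males and diamonds for females. In every panel libraries 26 (orange) and 64 (red) lie above the other 10; Cd8a reaches 25.5 and 122 CPM in them and at most 1.27 CPM in the others.

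In right atrium at the high dose, 4 of the 8 members tested had an unadjusted p under 0.05, beside 7.61% of all genes. Cd3e averaged 3.31 ± 2.81 CPM (SD, n = 6) at the high dose and 1.06 ± 0.376 CPM (SD, n = 6) in naive hearts, with a log2 fold change of 1.63 (SE 0.46) and an edgeR adjusted p of 0.518. In left atrium of Ahr-/- hearts, Cd4 averaged 0.336 ± 0.153 CPM (SD, n = 6) beside 0.755 ± 0.374 CPM (SD, n = 6), with a log2 fold change of -1.17 (SE 0.49) and an edgeR adjusted p of 0.293. In right atrium, Cd8b1 gave the smallest p in Ahr-/- and low-dose hearts, with log2 fold changes of 1.05 and 0.88 and edgeR adjusted p-values of 0.497 and 0.543. Lck did so in left atrium at the low dose, with 1.08 and an edgeR adjusted p of 0.321. In ventricle these were Lck for Ahr-/- hearts, Ptcra for the high dose and Cd8b1 for the low dose, with log2 fold changes of 0.59, -1.24 and -1.12 and edgeR adjusted p-values of 0.807, 0.274 and 0.268.

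With libraries 1 to 48 alone, which leave out library 53, there were 3 calls of 2 members in ventricle. At the high dose Cd3e had a log2 fold change of 2.03 with an edgeR adjusted p of 0.0469 and Lck 1.90 with 0.0202, when 14.7% of all genes passed. At the low dose Lck had 1.61 with 0.0281, when 15.4% did. With all libraries Lck was at 0.27 and -0.42 and Cd3e at 0.60 in the same comparisons, with edgeR adjusted p-values of 0.876, 0.799 and 0.654. The naive group there ranged from 0.205 CPM of Lck in library 33 to 13.1 CPM in library 53.

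The last comparison asked whether an arm's difference from naive hearts differed between the sexes. Of 69 member tests of the interaction, 0 passed an adjusted p of 0.05 by edgeR, beside 0% of all genes. At an unadjusted p under 0.05 there were 3, beside 2.53% of all gene tests. These were Cd3e in right atrium at the low dose, with a male minus female log2 difference of -2.37 (SE 0.99), and Cd8a and Lck in ventricle at the low dose, with -3.07 (SE 1.29) and -3.40 (SE 1.46). Each of these comparisons holds a library with a high mature sum, library 15 in the first and library 53 in the other 2, and each holds libraries whose sex-linked genes went against the label (50 and 68, and 53 and 71). Without the libraries against their labels, in the 24-group fit, the differences were -2.70 (SE 1.70), -0.24 (SE 2.57) and 0.23 (SE 2.68). The first rests on library 3 as the only naive right atrium female left. The other 2 rest on library 45 as the only low-dose ventricle male left.

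The immune and thymus lists had calls in ventricle alone, where many genes of every kind passed. In ventricle of high-dose females, where 23.7% of all genes passed, all 4 cardiomyocyte genes rose (Tnni3, a cardiac troponin, by 1.23 on the log2 scale), as did 2 of 3 ventricular genes, and the skeletal myosins Myh1 and Myh4 fell by 1.39 and 1.27. In the same comparison 1 of the 6 T cell surface genes tested rose, Foxp3, the factor of regulatory T cells, with a log2 fold change of 1.00 (SE 0.27). There 1 of 10 other thymocyte genes fell, Satb1, by 0.43 on the log2 scale, and the macrophage genes C1qa and C1qc (2 of 9) and the lymphoid chemokine Ccl21a (1 of 3) rose, shares near or under that over all genes except for Ccl21a's list of 3. With both sexes together, where 13.1% of all genes passed at the high dose and 12.9% at the low dose, Foxp3 rose by 0.93 (SE 0.20) at the high dose and 0.92 (SE 0.21) at the low dose, whereas Cd247, the zeta chain that signals with CD3, fell by 0.75 at the low dose and Csk, the kinase that restrains LCK, rose by 0.56 at the high dose, all called by edgeR. Among 11 proliferation genes tested, Plk1 was the 1 called, higher at both doses. Foxp3 had a median of 5.56 CPM over the 72 libraries, beside 1.21 CPM for Cd3e and 0.497 CPM for Cd4. In libraries 64 and 26, where the T cell members were high, Foxp3 was at 7.57 and 6.13 CPM. Whether its level came from T cells was not tested. In left atrium at the high dose, both sexes together, edgeR called 0 of all 15209 genes tested, so the lack of calls says nothing of a list. The lists tested there held 12 T cell receptor signalling genes, 12 other thymocyte genes, 5 thymic epithelium genes and 12 proliferation genes. Their median log2 fold changes were 0.93, 1.30, 2.62 and 1.20, beside 0.04 over all genes. Without libraries 26 and 64 these medians were 0.14, 0.0043, -0.10 and -0.14, beside 0.0052 over all genes.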

How the data were processed

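RNA from heart chambers was sequenced as poly-A selected libraries on a HiSeq. Per the submitters' processing notes and the methods, the authors demultiplexed with bcl2fastq and CASAVA 1.8, aligned to mm10 with TopHat and counted reads over coding regions; the deposited values are raw counts per Entrez gene, 24237 genes in 72 libraries. Annotation release, strand and treatment of multiple alignments are not given in the sources used here. Symbols matched 24155 genes, and the other 82 hold 3.91% of counts.

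Levels are CPM on the library total. Tests used edgeR 4.0.16 (R 4.3.3) on the counts, with filterByExpr (minimum count 10, minimum total 15), TMM, robust glmQLFit, glmQLFTest and Benjamini-Hochberg adjustment over all genes, called at 0.05. The SE is the log2 fold change divided by the square root of F. DESeq2 1.42.0 was an alternative. On simulated counts with 200 genes changed by a log2 fold of 2, edgeR recovered 65.5% at 3 against 3, 83.5% at 6 against 6 and 20.5% for the interaction. The changed genes were drawn at random from all genes that passed the filter, so these rates do not give the power for the low-count members. Limits of 0 and intervals cover counting error only. Replicates are separate mice per the methods. Ratios between libraries have exact conditional intervals at 95%.

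The members and gene lists were chosen with earlier results of these data known. Named are all members, the member with the smallest p and any called per comparison, the 5 genes most like each pattern, and from each list the genes highest in any library; list genes named beyond these were chosen after their values were seen. Libraries that went against their labels were kept in the comparisons, and alternatives leave them out.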

Additional observations from a re-analysis of the deposited data

How the results depend on the processing

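No paired analysis was possible because the labels number the libraries singly and share no replicate numbers between groups. With the library number range (1 to 48 or 49 to 72) as a term, added after seeing the data, no member was called in the 18, the 9 or the interaction comparisons, and of the members with the smallest p by sex the direction turned in 1, Cd8b1 in ventricle of Ahr-/- males (0.0498). Members called over the 18 comparisons stayed at 0 without the filter, with RLE or library-size scaling, with 4 groups in a fit, with DESeq2, at an adjusted p of 0.0001 and in the fit of 24 groups, and became 1 with libraries 1 to 48 (2 against 2). With each library left out in turn the count ran from 0 to 1, and the 1 came without library 66. Over the 9 comparisons of both sexes the count became 3 with libraries 1 to 48, 5 in the fit of 24 groups with all libraries (added after seeing the data) and 7 in that fit without libraries against their labels, and stayed 0 otherwise, also without libraries 26 and 64, a choice made after seeing the data. In the last fit 4 groups kept 1 library, assumed to vary like the rest. Leaving out single libraries from the fits of both sexes was not run.

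Of the members with the smallest p, Lck in ventricle of high-dose females passed at a log2 fold change of 2.09 with libraries 1 to 48 and ran from 1.27 to 1.93 with libraries left out. Cd8b1 in ventricle of males turned from -0.32 to 0.682 (Ahr-/-) and from -0.69 to 0.19 (high dose) with libraries 1 to 48, and to 0.688 and 0.221 in the fit of 24 groups; with libraries left out it ran from -0.705 to 0.971 and from -1.11 to 0.604. Lck in left atrium of Ahr-/- males ran from -0.636 to 2.23, the lowest without library 21. The other members with the smallest p kept their direction. Libraries with all immature genes over 3 counts fell from 3 to 1 among libraries 1 to 48, which leave out libraries 64 and 65, and were 2 over 10 counts and 3 at 1 count. Medians by compartment moved by less than 1 SD over libraries, an SD that libraries 26 and 64 widen in left atrium. Depth limits Rag1, Dntt and Ptcra most: at 3 counts a level of about 0.104 to 0.253 CPM is not told from 0.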

Other observations

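The sum of 9 B cell genes was above that of the 7 mature T cell genes in 57 of the 72 libraries, the 5 with mature sums over 20 CPM and no Rag1 among them, and below it in libraries 26 and 64. In library 9 (right atrium, high-dose male) the 9 B cell genes summed to 94.2 CPM with adipocyte genes at 19.5 CPM and lung genes at 0 CPM, so the high lymphocyte values there came without the adipocyte or airway genes that libraries 7 and 15 held. Library 59 had B cell genes at 62.8 CPM with Ucp1 at 0.0979 CPM. Library 21 (left atrium, Ahr-/- male) had a mature sum of 14.2 CPM with B cell genes at 80.0 CPM and Scgb1a1 at 736 CPM. Library 11 (right atrium, high-dose female) had a mature sum of 15.6 CPM with B cell genes at 7.86 CPM, and Myl4 at 16.8 CPM against its label. Library 65, the only other library with more than 3 counts of both Rag1 and Dntt, had Rag2 at 0 CPM and Prss16 at 0.0407 CPM.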
